A study of Mus musculus with 15 samples.

Results

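Isg15, Irf7 and Ifit2 are interferon-stimulated genes, and each was followed through 1 spliced transcript in a time course of macrophage activation. The members were chosen by transcript identifier, as ENSMUST00000085425 (Isg15), ENSMUST00000026571 (Irf7) and ENSMUST00000102825 (Ifit2), which makes 3 of the 113193 transcripts quantified. The gene names came with that choice. The reference table used here holds an Ensembl identifier for 0 of the 3 genes, so the names were not checked against it. The cells were bone marrow-derived macrophages of C57BL/6 mice at day 7 of differentiation, that is, macrophages grown in culture from bone marrow in medium conditioned by L929 cells. One group was left untreated, and the others received 10 ng/ml lipopolysaccharide (LPS), a cell wall component of Gram-negative bacteria, for 30 min or for 1, 2 or 4 h. Each of the 5 groups had 3 libraries of chromatin-associated RNA, which is recovered together with chromatin and is rich in RNA still being made. All groups share the strain, the culture and the fractionation. Macrophage markers were not checked, because the deposited transcript identifiers carry no symbols.

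LPS is sensed by the receptor TLR4, which signals through the adaptor TRIF to the transcription factor IRF3 and thereby induces interferon beta. Secreted interferon then acts on the cells' own receptor. Signalling from that receptor acts on interferon-stimulated response elements (ISREs) in the promoters of many antiviral genes. Isg15 encodes a ubiquitin-like protein that is attached to other proteins, Ifit2 an interferon-induced protein with tetratricopeptide repeats that restrains viruses, and Irf7 a transcription factor that amplifies the production of type I interferons. Other genes of the pathway were not analysed here, since their transcripts could not be named.

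The libraries held 7537521 to 11892599 estimated counts. After a filter on low counts 46186 transcripts were tested, all 3 members among them. The single most abundant transcript, which is no member, took 9.66% to 41.2% of the counts of a library, so CPM, the usual depth-scaled unit of a count, was computed here on library sizes scaled with TMM factors (0.680 to 1.51). Libraries with the same replicate number deviated together from their group means, in 30 of 30 pairs of libraries of different groups (r from 0.216 to 0.483). Where a block for the replicate number changes a call, its result is given too. Untreated replicate 1 held the highest untreated level of Isg15 and of Ifit2, and the fold changes of both against untreated cells are also given without it. Nothing in the labels says that replicates came from separate animals or cultures, so the p-values speak only of variation among the libraries at hand, part of which may be technical. In bulk libraries a change in the number of cells that express a gene and a change in RNA per cell cannot be told apart.

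Of the 3 transcripts, Isg15 rose most clearly, 18.0-fold at 2 h and 42.9-fold at 4 h against untreated cells. Ifit2 stood at 508 CPM ± 175 (SD, n = 3) at 4 h against 21.9 CPM ± 28.0 in untreated cells, a change that passed edgeR's test with the replicate number as a block and not in the fit of groups alone. With the block it passed in each of 15 fits that left out 1 library. Irf7 was listed at 219 CPM in 1 library at 4 h, at 24.2 CPM in another and at 0 in the last, and passed the test at no time. The joint test of the 4 times called Isg15 (edgeR quasi-likelihood F test, adjusted p = 0.00421) and neither Ifit2 (adjusted p = 0.0652) nor Irf7 (adjusted p = 0.268), so 1 of 3 members was called where 6.37% of all tested transcripts were. With the replicate number as a block Ifit2 was also called (adjusted p = 0.00116) and Irf7 was not (adjusted p = 0.280), and 16.3% of all transcripts were called in that fit. DESeq2 also called Isg15 and Ifit2, with 18.2% of all transcripts.

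**Figure D1:**
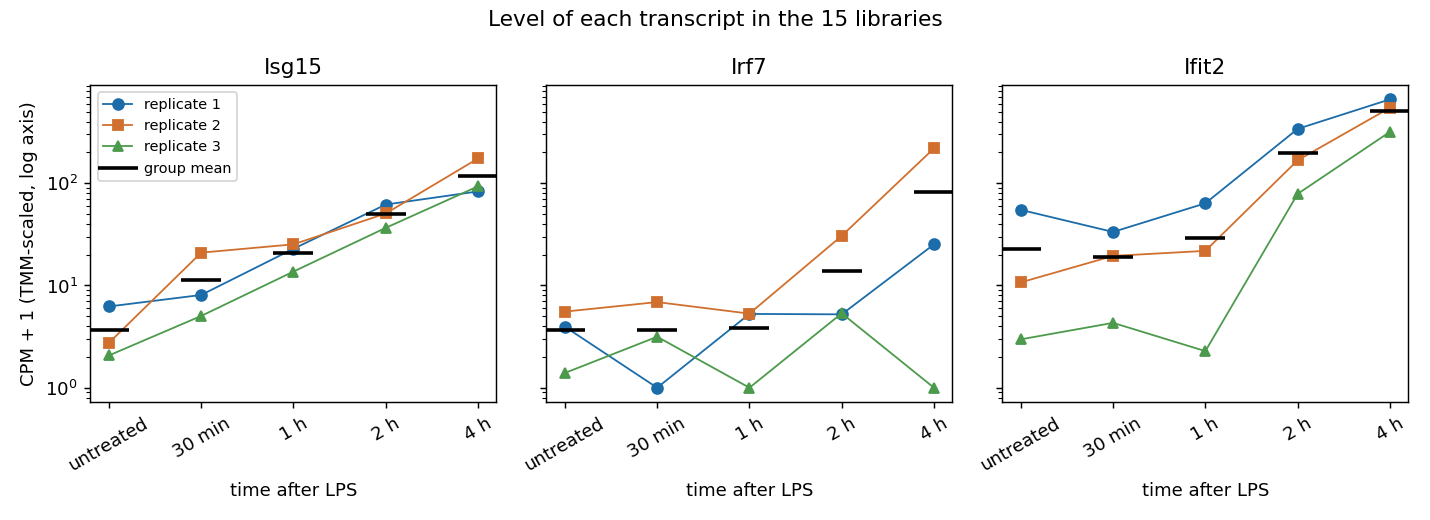
Level of Isg15, Irf7 and Ifit2 in each of the 15 libraries, as CPM + 1 on a log axis against time after LPS, with lines joining libraries of the same replicate number and black bars at the group means. The group mean of Isg15 is higher at each later time, and Irf7 spreads from 0 to 219 CPM at 4 h. All Ifit2 libraries at 2 h and 4 h lie above all untreated ones, as for 12.5% and 13.3% of all tested transcripts.

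The RefSeq promoter windows of the members were searched because all 3 are known interferon targets. The response element is what such windows can be read for. Sequences are printed for Isg15 and Irf7 only. Windows of 250 bases before to 50 bases after an annotated start were taken from RefSeq (GRCm38.p6). The starts used for Irf7 and Ifit2 are not the outer ends of their RefSeq loci (141266499 and 34550550). Isg15 and Irf7 had 1 window each and Ifit2 had 2. Sequences read 5′ to 3′ on the gene's strand, and capitals mark matches to the ISRE core (GAAA, any 2 bases, GAAA) and to the TATA box TATAAA. Both strands were searched.
Isg15 promoter (chr4:156200769-156201068, minus strand): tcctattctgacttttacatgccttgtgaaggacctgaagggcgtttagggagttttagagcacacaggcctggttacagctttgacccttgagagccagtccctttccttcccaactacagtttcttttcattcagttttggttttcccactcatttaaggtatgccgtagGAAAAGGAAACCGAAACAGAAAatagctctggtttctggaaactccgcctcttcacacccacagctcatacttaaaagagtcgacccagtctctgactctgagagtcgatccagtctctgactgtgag
Irf7 promoter (chr7:141266375-141266674, minus strand): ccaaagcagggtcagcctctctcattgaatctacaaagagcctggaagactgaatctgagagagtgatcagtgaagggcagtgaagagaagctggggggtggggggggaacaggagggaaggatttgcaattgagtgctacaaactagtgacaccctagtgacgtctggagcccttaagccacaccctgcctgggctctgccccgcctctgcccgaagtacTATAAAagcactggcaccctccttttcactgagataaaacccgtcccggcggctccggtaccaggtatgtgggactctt

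The Isg15 window held 3 overlapping ISRE core matches in 1 unbroken run, with first bases 78, 72 and 66 bases before the start. At least 1 such match lay in 3.44% of the 32851 promoter windows of the table, and 3 or more lay in 5 windows, the Isg15 window included. In the Irf7 window the only match of any motif searched was a TATA box with its first base 29 bases before the start. At any position and on either strand, that motif was present in 13.6% of all windows. Around that position and on the gene's strand, it was present in 2.17% of the 16291 minus-strand windows. The first Ifit2 window (chr19:34550444-34550743, plus strand) held 1 match to the NF-kB site form of GGG, any 3 bases and TTCC, present in 5.56% of windows, and an overlapping match to the gamma-activated site TTCNNNGAA, present in 8.30%. These lay 247 and 241 bases before the start. The other NF-kB form searched, GGG, any 2 bases and TTTCC, which can overlap the first and lay in 1.63% of windows, matched in none of the members' windows, and the second Ifit2 window (chr19:34550838-34551137) held no match of any motif searched. A match is a match of letters only, and the annotated starts were not matched to the transcripts counted here, so the absence of a match says nothing about the regulation of a gene.

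**Figure D2:**
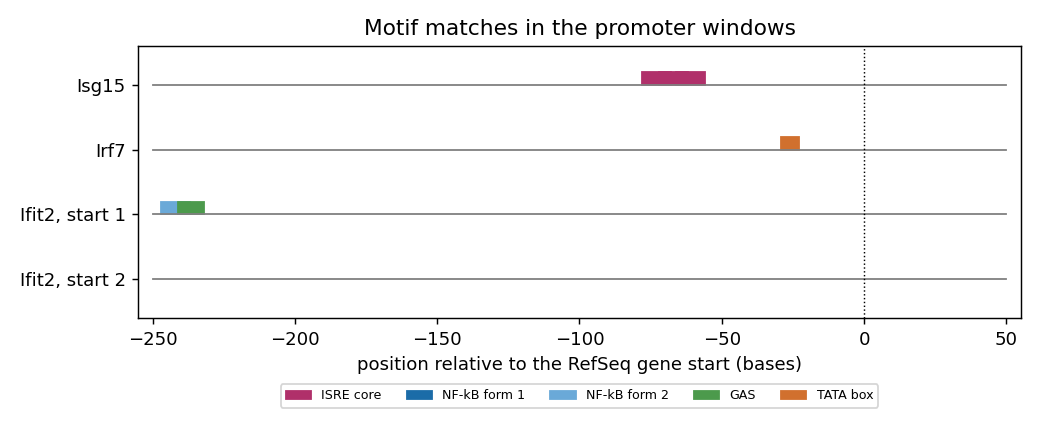
Motif matches in the 4 RefSeq promoter windows of the members, with position relative to the annotated start in bases, boxes above the line on the gene's strand and below it on the other. The 3 overlapping ISRE core matches of Isg15 form 1 block between 78 and 57 bases before the start, and the single Irf7 match is a TATA box.

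Isg15, the ubiquitin-like modifier, was counted on a transcript of 756 nt. In untreated cells its level was 5.24, 1.75 and 1.07 CPM in replicates 1, 2 and 3 (94.3, 19.3 and 9.30 estimated counts). At 30 min it was 7.08, 19.9 and 4.04 CPM, and at 1 h 21.9, 24.3 and 12.7 CPM. It then stood at 60.9, 49.6 and 35.6 CPM at 2 h and at 82.2, 174 and 92.3 CPM at 4 h. The untreated and 30 min libraries overlapped, through untreated replicate 1, whereas every library at 1 h, 2 h and 4 h lay above every untreated library. Such separation was found for 9.22%, 12.5% and 13.3% of all tested transcripts at these 3 times. The 2 h libraries also lay above those of 1 h and the 4 h libraries above those of 2 h, as for 9.64% and 5.20% of transcripts, while those of 30 min and 1 h overlapped. Group means increased in the order of the time course, from 2.68 CPM ± 2.24 (SD, n = 3) through 10.4 ± 8.4, 19.6 ± 6.1 and 48.7 ± 12.7 to 116 ± 50.2.

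Against untreated cells Isg15 had a log2 fold change of 4.17 ± 0.73 (SE) at 2 h (edgeR, adjusted p = 0.0127) and of 5.42 ± 0.77 at 4 h (adjusted p = 0.00248). At 2 h 1.97% and at 4 h 3.91% of all tested transcripts were called higher, and the members called numbered 1 of 3 at each of these times. At 1 h the log2 fold change was 2.86 ± 0.69 (adjusted p = 0.0757), which passed the test with the replicate number as a block (2.90 ± 0.55, adjusted p = 0.0192). That call held in 10 of 15 fits with the block that left out 1 library, and was lost without untreated replicate 2 or 3 or any one of the 1 h libraries (adjusted p up to 0.104). No member was called at 1 h without the block, 1 was with it or in DESeq2, and 1 had an unadjusted edgeR p under 0.05, as 11.6% of all transcripts did. The share of all transcripts called at 1 h was 1.04%, against 3.90% with the block and 5.38% in DESeq2. At 30 min the estimate was 1.93 ± 0.67 (unadjusted p = 0.0133, adjusted p = 0.444), and edgeR and DESeq2 each called 0 of 3 members, against 0.368% of all transcripts in edgeR and 2.44% in DESeq2. An unadjusted edgeR p under 0.05 was found for 1 of 3 members at 30 min and for 7.04% of all transcripts. The 30 min estimate was 1.05 without 30 min replicate 2, the highest library of that group (adjusted p = 1). All 3 same-numbered pairs were higher than untreated at all 4 times, by ratios of 1.35, 11.4 and 3.78 at 30 min and of 15.7, 99.4 and 86.3 at 4 h. Without untreated replicate 1 the log2 fold change was 2.87 at 30 min and 3.82 at 1 h (adjusted p = 0.292 and 0.0763), and the fold was 35.2 at 2 h and 82.9 at 4 h (adjusted p = 0.0251 and 0.00646). The 2 h call was lost without untreated replicate 2 or 3 (adjusted p = 0.0810 and 0.0575).

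By log2 fold change Isg15 ranked 804 of the 46186 tested transcripts at 4 h, with 98.3% of them below it, and 1118 at 2 h. Its TPM, which is scaled per length, moved from the 44.8 to 88.8 percentile of tested transcripts in untreated libraries to the 99.4 to 99.7 percentile at 4 h. With groups alone in the fit, Isg15 was uncalled at 30 min and 1 h, and called higher at 2 h and 4 h. It shared this pattern of calls with 549 other transcripts, and 1.19% of all tested transcripts had it, Isg15 included. The pattern depends on the fit, since the block and DESeq2 also called Isg15 at 1 h. The direct steps from one time to the next did not pass the test in edgeR. The log2 fold change was 0.93 ± 0.65 between 30 min and 1 h, 1.31 ± 0.65 for the step to 2 h and 1.25 ± 0.65 for the step to 4 h (adjusted p = 1, 0.481 and 0.803).

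Ifit2, whose product carries tetratricopeptide repeats and binds RNA, was counted on a transcript of 1745 nt. Untreated libraries differed widely, with 53.9, 9.72 and 1.97 CPM in replicates 1, 2 and 3 (971, 107 and 17.2 estimated counts). The level was 32.4, 18.5 and 3.31 CPM at 30 min and 62.7, 20.8 and 1.28 CPM at 1 h, and both groups overlapped the untreated one. At 2 h it was 339, 167 and 77.7 CPM and at 4 h 660.3, 546 and 317 CPM. Every library at 2 h and 4 h lay above every untreated library, and every 2 h library above every 1 h library. The 2 h and 4 h libraries overlapped, since replicate 1 at 2 h was higher than replicate 3 at 4 h. Separation from untreated cells in this direction was found for 12.5% of all tested transcripts at 2 h and for 13.3% at 4 h. That of 2 h from 1 h was found for 9.64%.

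The spread of Ifit2 followed the replicate number. The library numbered 1 had the highest and the library numbered 3 the lowest level in all 5 groups, which includes the 53.9 and 1.97 CPM of untreated cells. Within each number the change was upward at 2 h and 4 h. The ratios to the same-numbered untreated library were 6.29, 17.1 and 39.3 at 2 h and 12.2, 56.1 and 161 at 4 h. At 30 min they were 0.601, 1.90 and 1.68, and at 1 h 1.16, 2.14 and 0.649, so the pairs went both ways at the early times.

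With groups alone in the fit, Ifit2 had log2 fold changes of 3.15 ± 1.31 at 2 h (unadjusted p = 0.0317, adjusted p = 0.253) and 4.53 ± 1.39 at 4 h (unadjusted p = 0.00637, adjusted p = 0.0771). Neither passed the test in edgeR, while DESeq2 called the 4 h value (adjusted p = 0.00166) among 14.0% of all transcripts. With the replicate number as a block the changes were 3.89 ± 0.76 at 2 h (adjusted p = 0.0109) and 5.64 ± 0.83 at 4 h (adjusted p = 0.00155), that is, 14.9-fold and 49.9-fold, and both were called. In that fit 9.47% of all transcripts were called at 2 h and 15.1% at 4 h, and 2 of the 3 members at each time. The step from 1 h to 2 h was also called with the block, at 3.49 ± 0.75 (adjusted p = 0.0300, where 4.21% of transcripts were called), and was not without it, at 2.78 ± 1.29 (adjusted p = 0.435). With the block kept and 1 library left out in turn, the 4 h call held in 15 of 15 fits and the 2 h call in 13. The 2 h call was lost without untreated replicate 2 or 3 (adjusted p = 0.0653 and 0.0521). The call from 1 h to 2 h held in 8 of 15 fits and was lost without any one library of 1 h or 2 h or without 30 min replicate 3 (adjusted p up to 0.0895). Without untreated replicate 1 the fold with the block was 24.5 at 2 h and 78.7 at 4 h, and at 4 h it was 76.0 without 4 h replicate 1 and 28.7 without 4 h replicate 3. Leaving out untreated replicate 1 gave a fold of 33.9 at 2 h and 87.5 at 4 h without the block (adjusted p = 0.167 and 0.0598), against 8.87 and 23.1 with all libraries. In the same fit the fold at 2 h was 5.60 without 2 h replicate 1. The log2 change from 1 h to 2 h was 4.14 without 1 h replicate 1 and 2.11 without 2 h replicate 1 (adjusted p = 0.448 and 0.693). At 30 min and 1 h the estimates were -0.27 ± 1.21 and 0.37 ± 1.21 (adjusted p = 1 and 0.978), and they became 1.62 and 2.29 without untreated replicate 1 (adjusted p = 1 and 0.617). At 4 h Ifit2 lay at the 99.6 to 99.9 percentile of tested transcripts by TPM, against 31.9 to 98.4 in untreated libraries.

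**Figure D3:**
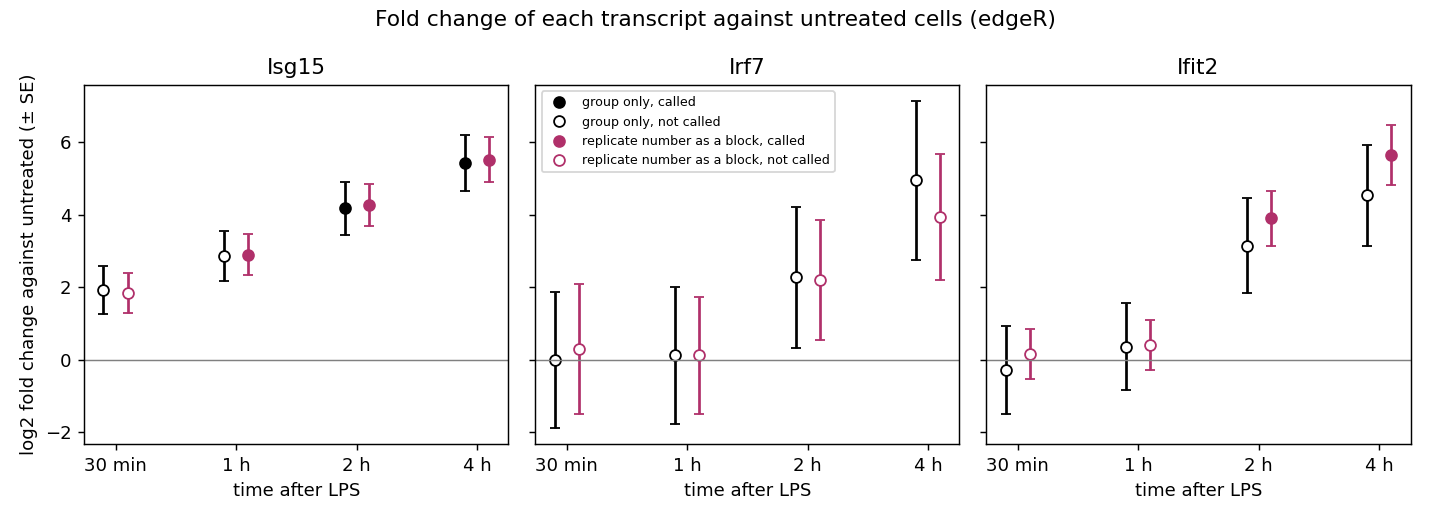
Log2 fold change against untreated cells with its standard error at the 4 times, for a fit with groups alone (black) and with the replicate number as a block (magenta), where filled points passed an adjusted p of 0.05. Isg15 is filled at 2 h and 4 h in both fits, Ifit2 at these times with the block only, and Irf7 nowhere.

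Irf7, the transcription factor of the set, was counted on a transcript of 1916 nt and ranged from 0 to 219 CPM over the 15 libraries. Its level was 2.95, 4.55 and 0.394 CPM in untreated replicates 1, 2 and 3 (53.1, 50.3 and 3.43 estimated counts). At 30 min it was under 0.001 CPM (0.00606 estimated counts), 5.88 and 2.15 CPM, and at 1 h 4.27, 4.31 and 0 CPM. It then stood at 4.22, 29.6 and 4.34 CPM at 2 h and at 24.2, 219 and 0 CPM at 4 h. Replicate 2 was highest in all 5 groups, and at no time did the LPS libraries separate from the untreated ones. In the 3 libraries with under 1 estimated count, 3 counts would correspond to 0.203 CPM at 30 min, 0.345 CPM at 1 h and 0.463 CPM at 4 h, limits that cover counting error only.

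The log2 fold change of Irf7 was -0.01 ± 1.87 at 30 min and 0.13 ± 1.89 at 1 h, then 2.27 ± 1.95 at 2 h and 4.94 ± 2.18 at 4 h (edgeR, adjusted p = 1, 0.998, 0.675 and 0.225). The block did not bring it past the test at any time (adjusted p = 0.162 at 4 h, log2 fold change 3.94 ± 1.74). Replicate 2 carried much of the later estimates. Without the replicate 2 library of that time the estimate was 0.72 at 2 h and 2.21 at 4 h (adjusted p = 0.970 and 0.639), and at 4 h it was 5.54 without replicate 3 (adjusted p = 0.126). Without untreated replicate 2 it was 2.90 at 2 h and 5.58 at 4 h (adjusted p = 0.720 and 0.358). The same-numbered ratios to untreated at 4 h were 8.21 and 48.0 in replicates 1 and 2, with replicate 3 listed at 0. In that replicate 3 library Isg15 stood at 92.3 CPM and Ifit2 at 317 CPM. The quantification divides reads among the isoforms of a gene. Estimated counts were whole numbers, within a tolerance of 1e-04, in 1 of 15 libraries for Isg15, 2 for Irf7 and 0 for Ifit2. The 2 of Irf7 are the libraries listed at 0, which is a whole number in any case. Other Irf7 isoforms were not analysed here, and the part of read division in the values listed at 0 was not tested. Irf7 at this transcript is therefore not a measure of the whole gene. The same holds for Isg15 and Ifit2, whose other isoforms were not analysed either.

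Levels can be set against each other only per length, as TPM. In untreated cells Ifit2 stood at 47.7 TPM ± 63.1 (SD, n = 3), Isg15 at 18.0 ± 16.6 and Irf7 at 4.92 ± 3.93, and neighbours in this order overlapped. At 1 h the order of the means was Isg15 at 91.6 TPM ± 26.7, Ifit2 at 43.9 ± 52.5 and Irf7 at 3.75 ± 3.31, again with Ifit2 overlapping both neighbours. At 4 h Ifit2 stood at 612 TPM ± 285 and Isg15 at 421 ± 153, with overlap. Irf7, at 80.4 ± 115, had its highest library (212 TPM) below the lowest of Isg15 (311 TPM).

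The timing of Ifit2 and Isg15 can be compared through their ratio within each library. Apart from the 1 added to each TPM, the ratio needs no scaling between libraries. The log2 ratio of Ifit2 over Isg15, from TPM + 1, was 1.68, 0.76 and -0.63 in untreated replicates 1, 2 and 3. It was 0.52, -1.72 and -1.76 at 30 min and -0.14, -1.85 and -4.40 at 1 h. The change from the same-numbered untreated library was -1.15, -2.49 and -1.12 at 30 min. At 1 h it was -1.82, -2.61 and -3.77, so the ratio was lower in all 3 pairs at both times. Ifit2 stood at 3.41 TPM in untreated replicate 3, at 4.94 in 30 min replicate 3 and at 1.97 in 1 h replicate 3. At such values the added 1 weighs on the ratio. The comparison with untreated libraries was added after the values were seen and is given with no test. From 1 h to 2 h the ratio was higher in all 3 pairs, by 0.95 to 3.87 on the log2 scale, and reached 0.81, 0.09 and -0.53. The means differed by 2.25 between 1 h and 2 h (exact permutation test, two-sided, p = 0.2, where 3 libraries against 3 allow no p below 0.1). From 2 h to 4 h the difference was 0.36 (exact p = 0.6). The ratio of Ifit2 over Irf7 was also higher at 2 h than at 1 h in all 3 pairs, by 0.40 to 2.54. The 2.54 is that of replicate 3, where Irf7 was listed at 0 TPM at 1 h. The ratio in that 1 h library rests on the added 1 and is no measured ratio of the 2 members. Over the 9 comparisons of 2 members between consecutive times, exact p ranged from 0.2 to 1 and adjusted p from 0.9 to 1. Since neither this test nor one over the 3 pairs can reach 0.05, the p-values do not tell whether 2 members moved apart.

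**Figure D4:**
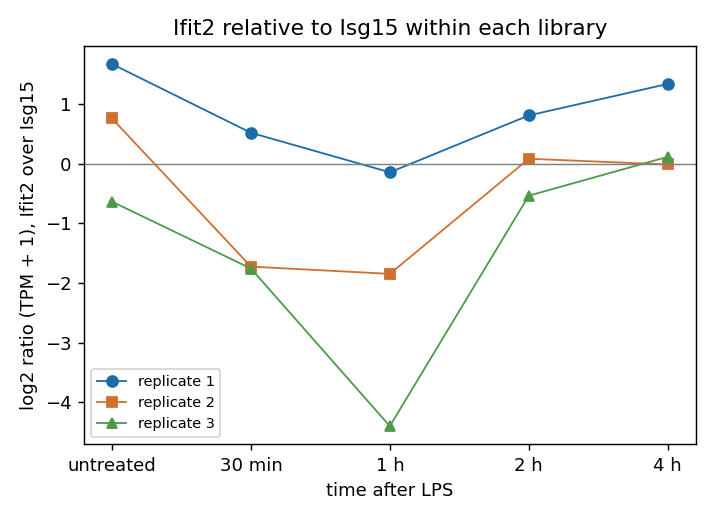
Log2 ratio of Ifit2 over Isg15 (TPM + 1) in each library against time after LPS, with lines joining libraries of the same replicate number. All 3 lines have their lowest point at 1 h, at -0.14, -1.85 and -4.40, and lie higher at 2 h.

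Between the 15 libraries, Ifit2 and Isg15 had the more similar patterns of log2 CPM. Their Pearson correlation was 0.82 (Spearman 0.87), and Ifit2 ranked 776 among the 46185 other transcripts by likeness to Isg15. Irf7 was less like either, at 0.47 with Isg15 (Spearman 0.40) and 0.54 with Ifit2 (Spearman 0.47). It had under 1 estimated count in 3 of the 15 libraries, and the part of those values in its correlations was not tested. All these correlations are descriptions, since the libraries fall into 5 groups and share replicate numbers, and the members differ by group. By the mean of the 3 Pearson correlations, the tested transcripts most like the members were ENSMUST00000094898.4 (2923 nt, mean 0.83) and ENSMUST00000229815.1 (1245 nt, mean 0.83), which carry no gene name here. ENSMUST00000094898.4 was at 7.82 to 24.3 CPM in untreated libraries and 58.2 to 313 CPM at 4 h, and ENSMUST00000229815.1 at 0 to 1.55 and 8.81 to 150.2 CPM. Both were highest in replicate 2 and lowest in replicate 3 at 2 h and 4 h. With log2(TPM + 1) in place of log2 CPM they ranked 4 and 2, and with Spearman correlations 3 and 11.

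The remaining steps between neighbouring times gave no call for any member without the block. Between 30 min and 1 h, 0.00% of all transcripts were called by edgeR, which found 2174 transcripts (4.71%) at an unadjusted p under 0.05, none of them a member, and DESeq2 called 223 (0.483%). Between 1 h and 2 h 0.422% and between 2 h and 4 h 0.0520% were called. No member had an unadjusted p under 0.05 in either step, against 11.5% and 6.78% of all transcripts. DESeq2 called 0 of the 3 members in each of the 3 steps, and 5.01% of all transcripts in the step to 2 h and 1.71% in the step to 4 h. The step of Ifit2 from 2 h to 4 h was 1.38 ± 1.22 on the log2 scale (adjusted p = 1), and that of Irf7 was 2.67 ± 1.96 (adjusted p = 0.974).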

How the data were processed

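Chromatin-associated RNA of 15 libraries was quantified with kallisto 0.44.0, per the submitters' processing notes. The authors deposited estimated counts and TPM for each of 113193 Ensembl transcripts, with their lengths. No source used here gives the annotation, the build or the fragment length, and libraries were unstranded per the labels. Members and lists were chosen with earlier results of these data known.

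Estimated counts were rounded and tested for all transcripts in edgeR 4.0.16 (R 4.3.3) by the quasi-likelihood test, with all 15 libraries and a term for group. TMM scaling, filterByExpr (minimum count 10, minimum total 15) and Benjamini-Hochberg adjustment over the 46186 transcripts kept were used, and a call is an adjusted p under 0.05. Fold changes are the fit's, with standard errors from its F statistic. Same-numbered libraries of different groups correlated in their deviations from group means (30 of 30 pairs above 0.1, r from 0.216 to 0.483). For 60 pairs of different numbers r was -0.306 to -0.00542. Deviations cancel within a group, so positive values for the same number make those for different numbers negative on average. The latter are no separate evidence. The numbers are taken to pair the libraries because of the same-numbered values. DESeq2 1.42.0, limma 3.58.1 on log2 TPM, other scalings, no filter, 2-group fits, the block and leaving out each library were the alternatives. Leaving out each library with the block kept was chosen after seeing the data. Named transcripts were the members and the 2 most like them by mean Pearson correlation. Planned lists of pathway and marker genes could not be matched to identifiers. Promoter windows are from RefSeq (GRCm38.p6).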

Additional observations from a re-analysis of the deposited data

How the results depend on the processing

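Over 9 alternatives of tool, scaling, filter, unit and block, Isg15 kept its call at 2 h (log2 fold change 3.62 to 4.26), at 4 h (4.53 to 5.51) and in the joint test (8 of the 9, since a 2-group fit has none), and Irf7 was called in none. The log2 fold change of Irf7 at 4 h ranged from 1.39 to 4.96 over these alternatives, against 4.94 with groups alone in the fit. Where calls were gained, Isg15 at 1 h was 2.86 in DESeq2, 2.61 in limma on log2(TPM + 1) and 2.90 with the replicate block. Ifit2 at 4 h was 4.52, 4.67 and 5.64 in the same 3 settings. The block alone called Ifit2 at 2 h (3.89) and from 1 h to 2 h (3.49). Ifit2 in the joint test had an adjusted p of 0.000353 in DESeq2 and 0.00116 with the block. The block changed no other call. Signs turned for values that were called in no setting. Irf7 at 30 min was 0.094 in DESeq2, 0.053 with DESeq2 size factors, 0.064 with only the 2 groups and 0.30 with the block, and Ifit2 at 30 min was 0.16 with the block. At 1 h Irf7 was -0.38 with library size alone, -0.34 with the most abundant transcript excluded from it, and -0.41 and -1.15 in limma with pseudocounts of 1 and 0.1. In those 4 settings Ifit2 at 1 h was -0.11, -0.085, -0.12 and -0.18. From 30 min to 1 h Irf7 was -0.18 with the block and Ifit2 -0.058 in limma with 0.1, which also put Irf7 at -0.28 from 2 h to 4 h. The cause was not tested.

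Leaving out 1 library at a time, against untreated cells Isg15 ranged from 1.05 to 2.87 at 30 min, from 2.49 to 3.82 at 1 h and from 3.80 to 5.14 at 2 h. Irf7 ranged from -1.36 to 0.62 at 30 min, from -0.38 to 0.76 at 1 h and from 0.72 to 2.90 at 2 h. Ifit2 ranged from -1.02 to 1.62 at 30 min, from -0.98 to 2.29 at 1 h and from 4.00 to 6.45 at 4 h, and its joint adjusted p from 0.0436 to 0.168. It was called at 4 h without 1 h replicate 3 (adjusted p = 0.0480) and in the joint test without untreated replicate 1. Isg15 was called at 1 h without 30 min replicate 2 (adjusted p = 0.0443). From 30 min to 1 h Irf7 ranged from -0.46 to 1.54 and Ifit2 from -0.71 to 1.39, and from 2 h to 4 h Irf7 ranged from -0.066 to 4.23. Among ratios, Isg15 over Irf7 ranged from -1.09 to 0.38 (1 h to 2 h) and from -1.70 to 1.70 (2 h to 4 h). Ifit2 over Irf7 ranged from -1.30 to 1.41 (30 min to 1 h) and from -1.15 to 2.31 (2 h to 4 h), and Ifit2 over Isg15 from -0.068 to 0.71 (2 h to 4 h). The number of all transcripts called against untreated cells, 170, 480, 1184 and 2884 at the 4 times, was 1129, 2483, 4310 and 6466 in DESeq2, 464, 1801, 4376 and 6993 with the block, and as low as 5, 46, 158 and 1172 without 1 library. With the block kept, an alternative chosen after seeing the data, leaving out 1 library gave 2.48 to 3.85 for Isg15 at 1 h, and for Ifit2 3.48 to 4.61 at 2 h, 4.84 to 6.30 at 4 h and 2.91 to 3.96 from 1 h to 2 h. Irf7 rests on few counts in most libraries, and an isoform's estimated count has an uncertainty that the errors leave out.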
